A study of Mus musculus with 12 samples.

Results

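The genes followed here belong to the red cell lineage: the adult alpha-globin genes Hba-a1 and Hba-a2, the adult beta-globin genes Hbb-bs and Hbb-bt, the embryonic beta-like globin gene Hbb-y, and the erythroid genes Alas2, Slc4a1 and Fech. They are 8 of the 38720 genes listed in each of 2 tables of retinal RNA sequencing, and all 8 were found in both. They were selected on their measured levels, as blood transcripts that were higher in the knockout in these same tables, so their differences between genotypes are given below as a description, without a test.

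The libraries came from retinas of C57/BL6 mouse pups at postnatal day 0. The mKO pups carried Math5-Cre and Ezh2 flox/flox, where Cre stands in the Math5 locus and removes the SET domain exons of Ezh2, the methyltransferase that places H3K27me3, and the study states that Cre acts in only part of the retinal ganglion cells (RGCs). The WT pups are labelled wild type, and the study's methods name littermate floxed mice as its usual controls, so whether WT pups carried floxed alleles is not settled by the sources used here. Retinas were dissociated, RGCs were pulled out with magnetic beads against CD90 (Thy-1), and the remaining cells formed the non-RGC fraction, which gave 4 groups of 3 libraries from 3 RNA extractions each. Below, mKO and WT are the names the labels give. Single libraries are called A, B and C within a group, from the deepest to the shallowest, and these letters carry no pairing between groups.

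The libraries held 7139633 to 13014004 reads on genes, the shallowest being mKO non-RGC library C. Ezh2, counted over the whole gene, had 1424.3 ± 63.0 normalised reads (reads divided by the authors' size factor) in mKO RGCs and 1358.1 ± 277.3 in WT RGCs, and 2168.6 ± 314.5 and 1982.3 ± 259.9 in non-RGCs (SD, n = 3). The log2 changes of 0.09 ± 0.13 and 0.13 ± 0.15 (SE, limma, adjusted p = 0.639 and 0.588) did not pass the test, and since the count includes exons that Cre leaves in place it does not check the deletion. The study reports diminished Ezh2 in newborn mKO RGCs by qPCR and Western blot. It also describes a lower Ezh2 level in its RNA-seq of RGCs, which the values here do not show. Thy1, the bead antigen, had 2208 to 2519 normalised reads in WT RGC libraries and 1.94 to 9.38 in WT non-RGC libraries, against 1422 to 1426 and 67.0 to 93.2 in the mKO libraries. WT non-RGC library C stood apart from A and B, with 0 reads of the microglial gene C1qc against 55 and 47. The RNA came from bulk fractions, so more red cells and more RNA per red cell cannot be told apart in any value below.

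Haemoglobin is built from a pair of alpha-type and a pair of beta-type chains, each holding a haem. Red cell precursors make haem in a chain of enzymes that starts with ALAS2, the erythroid form of 5-aminolevulinate synthase, and ends with ferrochelatase, the product of Fech, which puts the iron in. Slc4a1 encodes band 3, the anion exchanger of the red cell membrane, and is also transcribed in acid-secreting cells of the kidney. Circulating reticulocytes still carry globin and Alas2 RNA, so these transcripts serve as a trace of blood in a dissociated tissue. In newborn mice the adult chains have replaced the embryonic ones.

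The adult globin genes come in near-identical copies, and this sets what their separate read counts can tell. The coding sequences of Hba-a1 (chr11:32283511-32284465, plus strand) and Hba-a2 (chr11:32296489-32297298, plus strand) are each 429 bases long and differ at 1 base, written C381T from Hba-a1 to Hba-a2, counted from the first base of the start codon. Those of Hbb-bs (chr7:103826534-103828096, minus strand) and Hbb-bt (chr7:103812524-103813996, minus strand) are 444 bases long and also differ at 1 base, C417T from Hbb-bs to Hbb-bt. Coordinates are of GRCm38, which mm10 names, and transcripts are those of GENCODE M21. The last stretch of each coding sequence is shown because it holds the only coding base by which a read can be told to a copy, given in capitals.
Hba-a1: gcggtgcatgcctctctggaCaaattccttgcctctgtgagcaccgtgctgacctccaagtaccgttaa
Hba-a2: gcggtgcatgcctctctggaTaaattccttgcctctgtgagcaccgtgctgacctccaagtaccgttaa
Hbb-bs: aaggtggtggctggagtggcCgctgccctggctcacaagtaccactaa
Hbb-bt: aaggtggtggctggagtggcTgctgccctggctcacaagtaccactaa

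Over windows of 75 bases, the nominal cycles of the sequencing kit, 389 of 625 windows (62.2%) along the Hba-a1 transcript and 389 of 480 (81.0%) along the Hba-a2 transcript were shared between them. Among the beta genes 356 of 554 windows (64.3%) of Hbb-bs and 356 of 629 (56.6%) of Hbb-bt were shared. How the authors assigned reads that match both copies is not given in the sources used here. The sum over a pair is therefore the firmer value, and the split between copies is uncertain.

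The start-proximal sequence of an adult and an embryonic gene is shown next as a description. Its part in the read counts was not tested. Each is the 150 bases before the RefSeq start (GRCm38.p6), of Hba-a2 at chr11:32296342-32296491 on the plus strand and of Hbb-y at chr7:103853208-103853357 on the minus strand. Capitals mark matches on either strand to the GATA motif (GATAA), the letters CACCC bound by KLF factors, the CCAAT box and the TATA box (TATAA).
Hba-a2: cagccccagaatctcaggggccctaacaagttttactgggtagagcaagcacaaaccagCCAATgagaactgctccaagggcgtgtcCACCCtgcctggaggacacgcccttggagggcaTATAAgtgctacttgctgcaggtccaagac
Hbb-y: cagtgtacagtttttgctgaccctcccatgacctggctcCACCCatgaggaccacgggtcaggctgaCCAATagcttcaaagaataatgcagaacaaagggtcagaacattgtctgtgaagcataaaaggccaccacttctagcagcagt

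All 4 adult globin genes held CACCC with a CCAAT box and a TATAA in this window, with TATAA ending 23 to 26 bases before the start. Hbb-y held CACCC and CCAAT, and the letters TATAA were not in its window, which held the letters CATAAAA. Alas2 held GATAA once and CACCC 3 times, each on the strand opposite to the gene. In all 32851 promoters of this length, 13.3% held GATAA, 37.4% held CACCC, 24.5% held CCAAT and 14.2% held TATAA. The 2 alpha windows were identical at all 147 aligned bases, and the 2 beta windows at 115 of 144 (79.9%).

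In both cell fractions the 4 adult globin genes and Alas2 were higher in mKO than in WT, and every mKO library lay above every WT library. Summed over the 4 globin genes, the difference was 2.299-fold in RGCs and 3.59-fold in non-RGCs. In non-RGCs it was 3.53-fold without WT library C and 2.96-fold without mKO library C, the shallowest. With 1 library left out in turn, it lay between 2.21 and 2.407 in RGCs and between 2.96 and 4.085 in non-RGCs. Hbb-y was at or near 0 everywhere, the Fech groups overlapped, and the Slc4a1 means were lower in mKO. Thus 5 of the 8 genes were higher without overlap in both fractions, which is what the selection rule used, and nothing is read from this count. Of all genes tested in both tables, 9.80% had every mKO library above every WT library in both fractions. The share was 24.1% of the genes tested in RGCs and 16.8% of those tested in non-RGCs, where a gene was tested if its mean over the 6 libraries was at least 10 normalised reads. Of the 8 genes, 6 passed this filter in RGCs and 7 in non-RGCs.

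**Figure D1:**
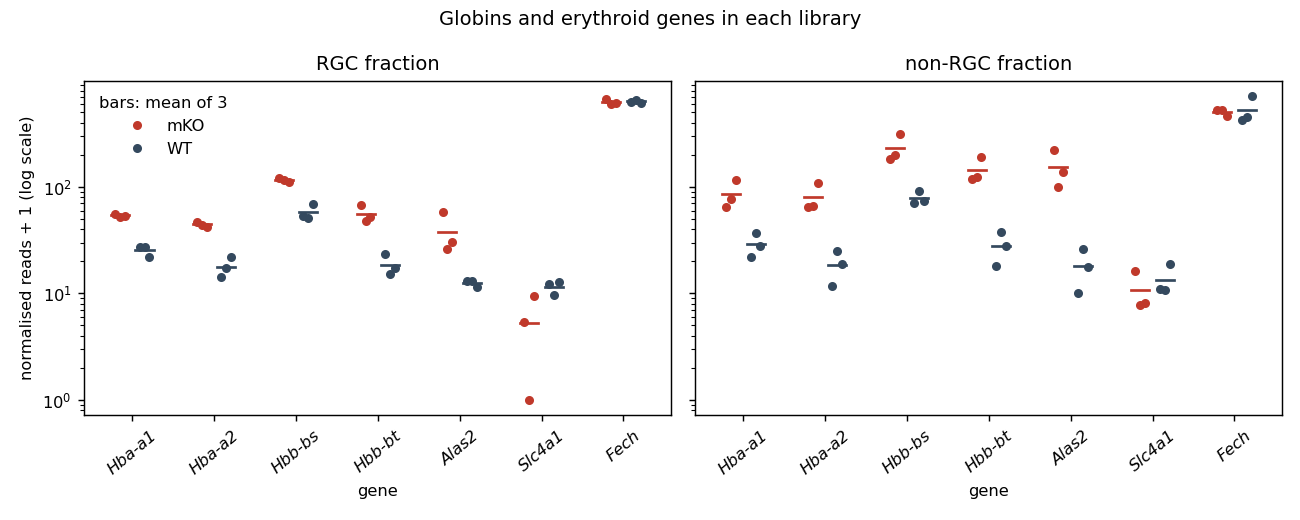
Normalised reads plus 1 (log scale) of 7 genes in each of the 12 libraries, with RGCs on the left and non-RGCs on the right, mKO in red and WT in dark blue, and bars at the mean of 3 libraries. The 4 globin genes and Alas2 have no overlap between genotypes in either fraction, whereas Fech overlaps in both, and Hbb-y is left out because it had at most 2 reads in a library.

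Hba-a1, an adult alpha chain gene, had 54.97, 51.6 and 52.7 normalised reads in mKO RGC libraries A, B and C and 26.4, 26.1 and 21.0 in the WT RGC libraries. The mKO values stood close together and the nearest WT value was below them by a factor of 1.96. Its means of 53.1 ± 1.70 and 24.5 ± 3.00 (SD, n = 3) differ 2.17-fold. In non-RGCs it had 63.2, 75.8 and 114.4 normalised reads in mKO and 20.8, 35.8 and 27.1 in WT, a difference of 3.03-fold between the means. Library C was the high one among the mKO non-RGC libraries, and library B among the WT non-RGC libraries.

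Hba-a2, the second alpha gene, had 45.4, 43.3 and 41.4 normalised reads in mKO RGCs and 13.2, 16.3 and 21.0 in WT RGCs, which is 2.58-fold between means of 43.4 ± 1.98 and 16.8 ± 3.94 (SD, n = 3). In non-RGCs the values were 63.2, 65.2 and 108.7 in mKO against 10.8, 24.2 and 17.7 in WT, or 4.50-fold. The high libraries were the same as for Hba-a1. Summed over both alpha genes, the mKO mean was 96.5 ± 3.38 and the WT mean 41.3 ± 1.54 in RGCs, and 163.5 ± 52.2 and 45.5 ± 14.2 in non-RGCs. The alpha sum thus differed 2.34-fold in RGCs and 3.60-fold in non-RGCs, with no overlap.

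Hbb-bs, an adult beta chain gene, had the most reads of the 4, with 119.5, 115.3 and 109.2 normalised reads in mKO RGCs and 52.7, 49.9 and 67.7 in WT RGCs. The fold between its means, 2.02, was the smallest of the adult globin genes in this fraction. In non-RGCs it had 181.9, 198.5 and 314.9 in mKO and 70.4, 90.0 and 73.0 in WT, or 2.98-fold. All mKO libraries were above all WT libraries, by a factor of at least 1.61 in RGCs and 2.02 in non-RGCs.

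Hbb-bt, its partner copy, had 66.3, 47.0 and 50.8 normalised reads in mKO RGCs and 22.3, 14.1 and 16.3 in WT RGCs, a 3.11-fold difference between means of 54.7 ± 10.2 and 17.6 ± 4.23 (SD, n = 3). In non-RGCs the values were 118.7, 122.8 and 190.6 in mKO and 17.1, 36.8 and 27.1 in WT, which is 5.33-fold, the widest of the globin genes. The beta sum had means of 169.4 ± 14.3 and 74.4 ± 10.003 in RGCs, or 2.28-fold, and of 375.8 ± 112.9 and 104.8 ± 20.04 in non-RGCs, or 3.59-fold. As sums, the alpha and beta genes thus showed nearly the same fold within a fraction, 2.34 and 2.28 in RGCs and 3.60 and 3.59 in non-RGCs.

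Hbb-y, the embryonic epsilon-type chain gene at chr7:103851749-103853216 on the minus strand, had 4 reads in all 12 libraries together. It had 2 reads in mKO RGC library B and 1 each in mKO non-RGC library A and WT non-RGC library A, and 0 in the other 9. No fold is given, since every library was under the floor of 3 reads. The other embryonic and minor chain genes fared alike: Hba-x, the zeta-type alpha chain, had 6 reads in all, Hbb-bh1 and Hbb-bh2 had 1 each, and the theta-type genes Hbq1a and Hbq1b had 4 and 7. Together the 6 genes held 23 of 3235 haemoglobin reads, or 0.711% (95% exact interval 0.451 to 1.06%, counting error only). The haemoglobin reads of both genotypes were thus almost all of the adult genes.

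Alas2, which lies at chrX:150547375-150570638 on the plus strand, had 56.7, 24.9 and 29.2 normalised reads in mKO RGCs and 12.2, 11.9 and 10.5 in WT RGCs. Library A was the high one, and the means of 36.9 ± 17.3 and 11.5 ± 0.901 (SD, n = 3) differ 3.20-fold. In non-RGCs it had 221.9, 98.8 and 137.0 in mKO and 9.02, 25.2 and 16.7 in WT. The lowest mKO library was 3.93 times the highest WT library, and the means of 152.6 ± 63.0 and 17.0 ± 8.07 differ 8.998-fold, more than those of any globin gene. With 1 library left out in turn, the Alas2 fold lay between 2.34 and 3.72 in RGCs and between 6.95 and 11.9 in non-RGCs.

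Fech, at chr18:64452914-64490251 on the minus strand, was by far the most abundant of the 8 genes in reads, and it serves every cell that makes haem. It had 662.3, 600.3 and 616.4 normalised reads in mKO RGCs and 631.5, 650.3 and 618.5 in WT RGCs. The groups overlapped, and the ratio of the means was 0.989. On the reads-per-million scale (RPM, of the reads on genes) the direction turned, with 58.3, 52.4 and 52.9 in mKO just above 50.5, 51.3 and 49.995 in WT, since this scaling moved the log2 change of every gene up by 0.12 in RGCs and by 0.17 in non-RGCs. In non-RGCs it had 524.8, 527.5 and 460.4 in mKO and 419.6, 451.9 and 709.0 in WT, a ratio of 0.957. Here WT library C was above every mKO library and the other 2 WT libraries were below all of them, and without WT library C the ratio was 1.16. Alas2 and Fech, the first and last enzyme genes of haem synthesis in red cells, thus did not differ alike in these fractions. The part of red cells in the Fech reads was not tested.

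Slc4a1, at chr11:102348824-102366203 on the minus strand, had 4.36, 0 and 8.47 normalised reads in mKO RGCs and 11.1, 8.68 and 11.7 in WT RGCs, from 14 and 29 reads. It was lower in mKO, with a ratio of 0.407, although the highest mKO and lowest WT library nearly touched, and in RPM they overlapped at 0.726 and 0.686. Without mKO RGC library C the ratio was 0.208, and without library B 0.611. In non-RGCs it had 15.4, 6.71 and 7.06 in mKO and 9.92, 9.68 and 17.7 in WT, with overlap and a ratio of 0.782. Within the mKO non-RGC group the highest value came from library A, which also had the most Alas2. A marker of the kidney, where Slc4a1 is also transcribed, was lower in mKO as well. Umod, the uromodulin gene of the kidney tubule, had 28.4 to 39.7 normalised reads in WT RGCs and 0 to 1.84 in mKO RGCs, and 28.9 to 31.3 and 0 to 0.771 in non-RGCs. Atp6v1b1, a proton pump gene of the acid-secreting cells, had the higher mean in mKO, with 29.8 against 22.4 in RGCs and 8.52 against 7.50 in non-RGCs, and its groups overlapped. The part of kidney RNA in the Slc4a1 values was not tested.

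Across the 4 groups, levels are set side by side in RPM, since the 2 tables were normalised separately, and no test was made between tables. The summed adult globins were lowest in WT RGCs at 9.17, 8.40 and 10.2, followed by WT non-RGCs at 10.9, 16.9 and 12.5. These neighbours did not overlap, but the gap of the nearest libraries was smaller than the SD of either group, 0.897 and 3.11. Next stood mKO RGCs at 25.2, 22.5 and 21.8, and then mKO non-RGCs at 43.2, 46.85 and 72.3, both clear of the group below. Group means were 9.25 ± 0.897, 13.4 ± 3.11, 23.15 ± 1.81 and 54.1 ± 15.8 (SD, n = 3). Alas2 followed the same order of means, 0.922 ± 0.0648, 1.51 ± 0.728, 3.22 ± 1.54 and 15.3 ± 6.40, with the WT groups overlapping and WT non-RGC library B, at 2.27, above mKO RGC library B, at 2.17. Fech did not follow it, with means of 50.6 ± 0.679 and 46.8 ± 12.6 in WT RGCs and non-RGCs and 54.5 ± 3.296 and 50.7 ± 4.399 in mKO RGCs and non-RGCs.

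**Figure D2:**
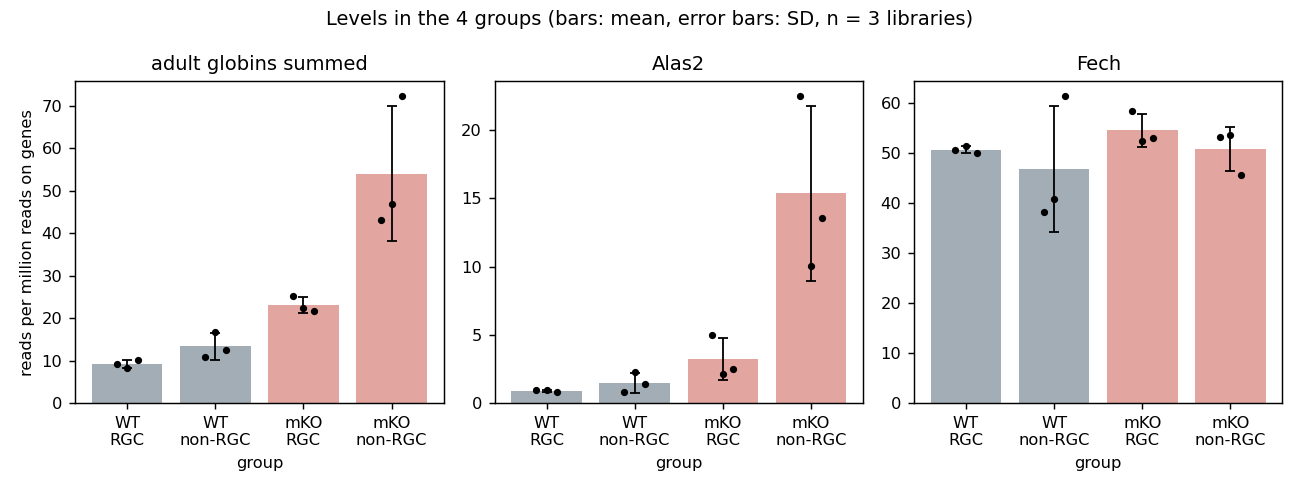
RPM of the summed adult globins, Alas2 and Fech in the 4 groups, with bars at the mean, error bars of 1 SD and points for the 3 libraries. The summed globins climb from 9.25 in WT RGCs to 54.1 in mKO non-RGCs, while the Fech means stay between 46.8 and 54.5.

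Per length of transcript, Hbb-bs was the highest of the 4 globin genes in every group. Divided by transcript length, in RPM per kilobase, it had means of 15.9 in mKO RGCs and 37.0 in mKO non-RGCs, against 6.61 and 12.1 for Hba-a1, 6.82 and 14.3 for Hba-a2, and 6.78 and 20.6 for Hbb-bt. Fech, at 8.30 and 7.72, was thus near the alpha genes in mKO RGCs per length, although its reads were many times more. Alas2 was at 1.58 and 7.54, and Slc4a1 at 0.0814 and 0.216.

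The shares of the copies were compared within single libraries, where depth and scaling cancel. Hbb-bt held 35.7, 29.0 and 31.8% of the beta reads in mKO RGCs and 29.7, 22.0 and 19.4% in WT RGCs, with 95% Wilson intervals as wide as 11.95 to 30.03% in WT library C (counting error only). In non-RGCs its share was 39.5, 38.2 and 37.7% in mKO and 19.6, 29.0 and 27.1% in WT. The WT non-RGC shares were all below the mKO non-RGC ones, but the RGC groups overlapped, and the intervals of WT non-RGC library B, 21.9 to 37.3%, and mKO non-RGC library C, 32.8 to 42.8%, overlapped too. Hba-a2 held 44.0 to 45.6% of the alpha reads in mKO RGCs and 33.3 to 50% in WT RGCs. In non-RGCs it held 46.3 to 50% in mKO and 34.3 to 40.3% in WT, again with overlap of intervals although not of values.

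**Figure D3:**
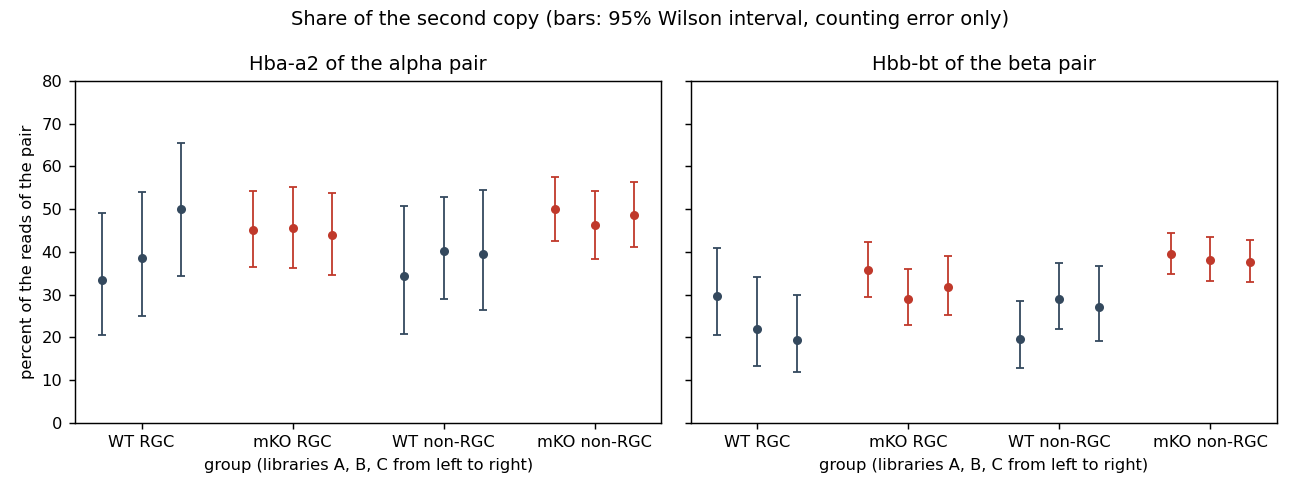
Percent of the alpha reads given to Hba-a2 (left) and of the beta reads given to Hbb-bt (right) in each library, with 95% Wilson intervals that cover counting error only. The mKO non-RGC libraries lie at 37.7 to 39.5% for Hbb-bt, above the 19.6 to 29.0% of the WT non-RGC libraries.

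The alpha genes together took 35.1 to 37.0% of the adult globin reads in mKO RGCs and 33.3 to 39.8% in WT RGCs. In non-RGCs they took 29.6 to 30.6% in mKO and 26.5 to 32.1% in WT. The genotypes overlapped in both fractions, so the balance of alpha and beta reads showed no difference beyond the spread of libraries. The balance of Alas2 and globins did vary, and the part of depth in it was not tested. Alas2 made up 34.2% (95% Wilson interval 31.1 to 37.5%) of the Alas2 and globin reads in mKO non-RGC library A, 17.6% in B and 15.8% in C, against 7.04 to 11.9% in the WT non-RGC libraries. In RGCs it made up 16.5, 8.82 and 10.3% in mKO and 7.69 to 10.1% in WT, with overlap. Library A of the mKO non-RGC group therefore had the most Alas2 but not the most globin, in normalised reads.

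Globin reads hardly grew with depth among the mKO non-RGC libraries. Library A held 1.80 times the reads on genes of library C, yet it had 82 against 81 reads of Hba-a1, 82 against 77 of Hba-a2, 236 against 223 of Hbb-bs and 154 against 135 of Hbb-bt. Alas2 had 288 against 97, a ratio of 2.97, and Fech 681 against 326, or 2.09. The same ratio over all genes with at least 100 reads in both libraries together went with transcript length. Its median was 1.15 (quartiles 1.06 and 1.30) over 543 genes under 1000 bases, 1.36 over 2216 genes of 1000 to 2000 bases, 1.79 over 6661 genes of 2000 to 5000 bases and 2.49 over 2881 longer genes. The globin transcripts are 554 to 703 bases long, and their ratios of 1.01 to 1.14 lay under that median of short genes. Alas2, 2037 bases long, was above the quartiles of 1.53 and 2.12 of its class. By reads per kilobase, the median ratio was 2.00 (quartiles 1.62 and 2.43) over 2919 genes with 100 to 200. It was 1.66 (quartiles 1.41 and 1.98) over 4754 genes with 200 to 500. The globin genes had 115.4 to 353.5 reads per kilobase, and their ratios lay under the lower quartiles of both classes. The files' names say that duplicate reads were removed, which caps the reads a short transcript can show, and the part of this in the globin values was not tested.

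**Figure D4:**
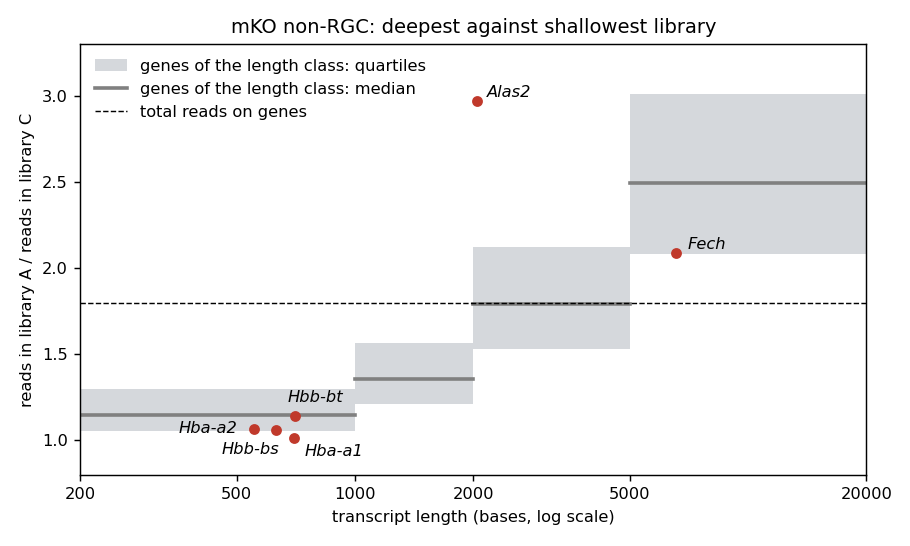
Reads in mKO non-RGC library A over reads in library C, against transcript length (log scale), with grey lines at the median and grey fields at the quartiles of 4 length classes of all genes, a dashed line at the ratio of total reads, 1.80, and red points for 6 of the followed genes. The 4 globin genes lie at 1.01 to 1.14, while Alas2 lies at 2.97.

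Genes of differing base composition also differed between the genotypes, and the globin values are set against this. In RGCs the median log2 change (mKO over WT) was 0.39 over 3518 genes under 45% GC and fell to −0.39 over 3926 genes of 55% or more, and in non-RGCs these medians were 0.22 and −0.29. The adult globin transcripts hold 50.8 to 57.2% GC. Among genes under 1000 bases with 50 to 58% GC, the median was −0.18 (quartiles −0.44 and 0.23) in RGCs and 0.11 (quartiles −0.14 and 0.51) in non-RGCs. The log2 changes of the 4 globin genes, 1.01 to 1.59 in RGCs and 1.53 to 2.40 in non-RGCs, were above these upper quartiles. Since these genes were selected for being higher in mKO, nothing is read from this position. With the GC trend of each library removed, the log2 change of the globin sum went from 1.21 to 1.41 in RGCs and from 1.82 to 1.97 in non-RGCs.

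Other genes of the pathway were drawn from 7 lists of 60 genes, of which 59 were in the tables. In RGCs 43 passed the filter of a mean of at least 10 normalised reads, and 3 were higher and 13 lower in mKO (limma, Benjamini-Hochberg adjusted p under 0.05 over all genes tested). In non-RGCs 39 passed, and 2 were higher and 5 lower. Over all genes, 16.0% were higher and 21.7% lower in RGCs, and 4.03% and 6.53% in non-RGCs. In RPM the split was 4 higher and 8 lower in RGCs, and 2 higher and 3 lower in non-RGCs, and over all genes 23.6% were higher and 14.2% lower in RGCs, and 8.47% and 2.89% in non-RGCs. The median log2 change of the listed genes was −0.18 in RGCs and 0.01 in non-RGCs, beside −0.01 and −0.03 over all genes tested. With the GC trend of each library removed, 2 were higher and 5 lower in RGCs, 4 of them among the 16 called above, and 1 was higher and 1 lower in non-RGCs, both among the 7 called above (limma). Over all genes these shares were 4.41% and 8.85%, and 0.779% and 0.488%. With the trends of each library with GC and reads per base removed, 0 were higher and 1, Zfpm1, lower in RGCs, and 1 was higher and 0 lower in non-RGCs (limma). Over all genes these shares were 0.988% and 2.36%, and 0.508% and 0.501%. Without mKO non-RGC library B, 0 of the listed genes were called in non-RGCs.

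**Figure D5:**
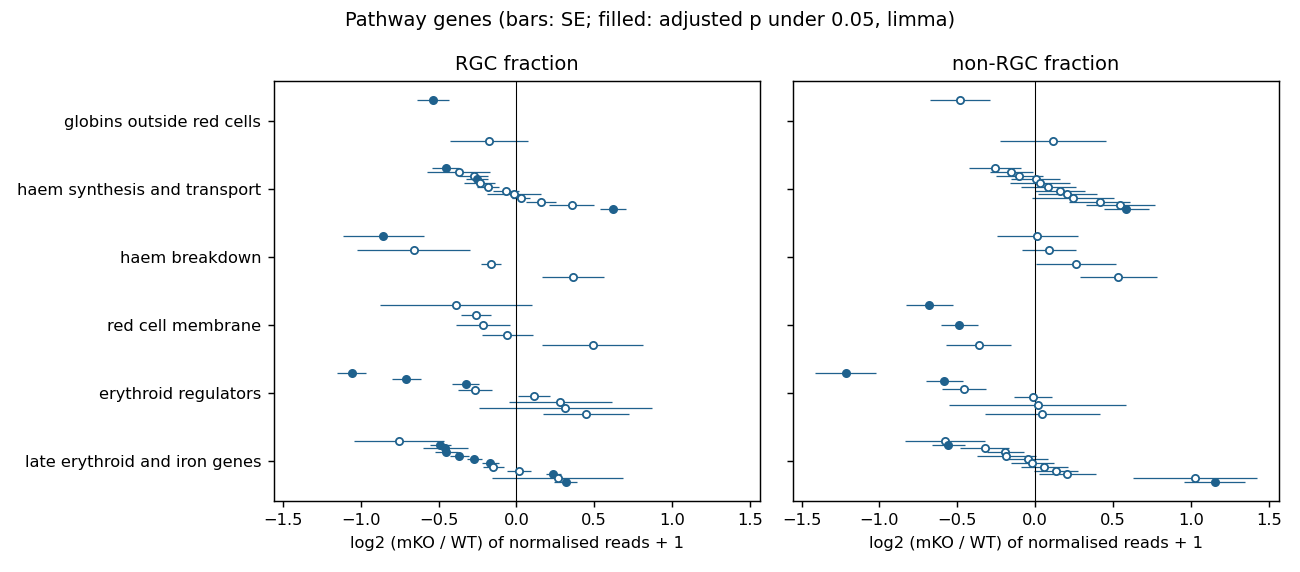
Log2 change (mKO over WT) of normalised reads plus 1 for the tested genes of 6 pathway lists in RGCs and non-RGCs, with bars of 1 SE and filled points for an adjusted p under 0.05 (limma). Of these genes 3 were higher and 13 lower in RGCs, and 2 higher and 5 lower in non-RGCs, and the list of further haemoglobin chains is left out because none of its genes passed the filter.

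Of the 12 genes of haem synthesis and transport, all passed the filter in both fractions. Flvcr1 (listed as Mfsd7b), which exports haem from cells, rose in mKO RGCs from 423.7 to 650.3 normalised reads, a log2 change of 0.62 ± 0.09 (SE, adjusted p = 0.0021), and in non-RGCs by 0.58 ± 0.14 (adjusted p = 0.034). With the GC trend removed, its log2 change was 0.45 in RGCs (limma, adjusted p = 0.019) and 0.50 in non-RGCs (adjusted p = 0.092). With the GC and reads per base trends removed, it was 0.34 (adjusted p = 0.098) and 0.40 (adjusted p = 0.10). Alad, which carries out the second step of haem synthesis, fell by 0.46 on the log2 scale in RGCs (adjusted p = 0.0072), and Slc25a38, the mitochondrial glycine carrier, by 0.25 (adjusted p = 0.030). With the GC trend removed, the log2 change was 0.06 for Slc25a38 and −0.02 for Alad, with neither called. Abcb10, a mitochondrial transporter and the gene of the list with the most reads, had log2 changes of 0.03 ± 0.06 in RGCs (adjusted p = 0.72) and −0.15 ± 0.14 in non-RGCs (adjusted p = 0.49), and Ppox, the next, −0.37 ± 0.21 (adjusted p = 0.20) and 0.24 ± 0.26 (adjusted p = 0.57). Alas1, the synthase form of other cells, was singled out after its values were seen, as the counterpart of Alas2, and had −0.18 ± 0.07 in RGCs (adjusted p = 0.079) and −0.10 ± 0.15 in non-RGCs (adjusted p = 0.69).

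Of the 4 genes of haem breakdown, Blvrb, a biliverdin reductase, fell by 0.85 on the log2 scale in RGCs (SE 0.26, adjusted p = 0.039), and none was called in non-RGCs (limma), where 0 of the 4 had an unadjusted p under 0.05. Hmox2, the constitutive haem oxygenase, had −0.16 ± 0.06 in RGCs (adjusted p = 0.091), and Hmox1, the inducible one, −0.66 ± 0.36 (adjusted p = 0.19). Of the globins used outside red cells, Cygb (cytoglobin) fell by 0.54 in RGCs (SE 0.10, adjusted p = 0.0064), and Ngb (neuroglobin), which neurons transcribe, had −0.18 ± 0.25 (adjusted p = 0.61). In non-RGCs Cygb had −0.48 ± 0.19 (adjusted p = 0.13) and Ngb 0.11 ± 0.34 (adjusted p = 0.85). With the GC trend removed, neither RGC call was kept. The RGC log2 changes were then −0.48 for Blvrb (limma, adjusted p = 0.28) and −0.09 for Cygb (adjusted p = 0.63).

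Of the 10 red cell membrane genes, 5 in RGCs and 4 in non-RGCs had at most 3 reads in every library. Epb42 (listed as Epb4.2), the protein 4.2 gene, and the blood group genes Rhag and Kel were among them in both fractions. The membrane genes with many reads are those that neurons and other cells also transcribe. Sptb, a spectrin gene, fell by 0.68 on the log2 scale in non-RGCs (SE 0.15, adjusted p = 0.026), and Epb41 (listed as Epb4.1), the protein 4.1 gene, by 0.49 (SE 0.12, adjusted p = 0.033). With the GC trend removed, these log2 changes were −0.405 (limma, adjusted p = 0.20) and −0.66 (adjusted p = 0.044). With the GC and reads per base trends removed, they were −0.45 (adjusted p = 0.13) and −0.48 (adjusted p = 0.061). In RGCs 0 of the 5 tested were called (limma), with 1 at an unadjusted p under 0.05, and Sptb had −0.22 ± 0.17 (adjusted p = 0.36) and Epb41 −0.26 ± 0.10 (adjusted p = 0.070).

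Among 11 erythroid regulators, 2, Gata1 and Gfi1b, had at most 3 reads in every library of both fractions. Gata1, the master factor of the lineage, had 8 reads in all 12 libraries, and Gfi1b had 2. Of the genes singled out after their values were seen, Klf1, the activator of the adult beta genes, had 12 to 19 reads in the mKO RGC libraries and 8 to 16 in WT, a log2 change of 0.28 ± 0.33 (adjusted p = 0.54). Nfe2, a globin locus factor, did not pass the filter in either fraction. It had 13, 15 and 6 reads in mKO non-RGCs and 2, 3 and 4 in WT non-RGCs, and 3, 3 and 9 against 4, 2 and 2 in RGCs. The cofactor genes called in RGCs were 3, of which Zfpm1 fell by 1.06 on the log2 scale (SE 0.09, adjusted p = 6.4e-04), Ldb1 fell by 0.71 (adjusted p = 0.0016) and Lmo2 fell by 0.33 (adjusted p = 0.022). With the GC trend removed, the RGC log2 changes were −0.27 for Zfpm1 (limma, adjusted p = 0.11), −0.30 for Ldb1 (adjusted p = 0.049) and −0.10 for Lmo2 (adjusted p = 0.46), and with both trends removed that of Zfpm1 was −0.64 (adjusted p = 0.021). In non-RGCs Lmo2 had 606 reads in WT library C against 135 and 136 in the other WT libraries. Zfpm1, known as FOG-1, also fell in non-RGCs by 1.22 (SE 0.20, adjusted p = 0.010), as did Zbtb7a, a repressor of embryonic globin genes, by 0.58 (adjusted p = 0.019). In non-RGCs neither call was kept with the GC trend removed, where the log2 changes were −0.56 (limma, adjusted p = 0.18) for Zfpm1 and −0.29 (adjusted p = 0.20) for Zbtb7a. Bcl11a, the repressor of embryonic and fetal globin genes, was also singled out afterwards and had 0.11 ± 0.10 in RGCs (adjusted p = 0.42) and −0.01 ± 0.12 in non-RGCs (adjusted p = 0.96).

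Of 15 late erythroid and iron genes, 14 were in the tables, Ahsp being not analysed here, and 12 passed the filter in each fraction. In RGCs 2 rose and 6 fell. Tfrc, the transferrin receptor, rose by 0.32 on the log2 scale (SE 0.08, adjusted p = 0.016) and Xpo7, a nuclear exporter, by 0.24 (SE 0.05, adjusted p = 0.0084), but the log2 change of Tfrc was −0.13 with the GC trend removed, and that of Xpo7 −0.08 with the GC and reads per base trends removed. Prdx2, a peroxiredoxin abundant in red cells, fell by 0.49 (adjusted p = 0.0019), and Car2, a carbonic anhydrase, fell by 0.46 (adjusted p = 0.044), the largest log2 changes called in this list in RGCs. Ube2o, an enzyme that clears ribosomes from reticulocytes and the gene of this list with the most reads, fell by 0.45 in RGCs (adjusted p = 0.0036) and by 0.56 in non-RGCs (adjusted p = 0.017). Mkrn1, a ubiquitin ligase gene and the next in reads, fell by 0.27 in RGCs (adjusted p = 0.0056) and had −0.02 ± 0.14 in non-RGCs (adjusted p = 0.94). With both trends removed, the RGC values of Prdx2, Car2, Ube2o and Mkrn1 were −0.11, −0.26, 0.05 and 0.14, with none called. The non-RGC value of Ube2o was −0.23 with the GC trend removed (limma, adjusted p = 0.26). Car1, a carbonic anhydrase of red cells, had 8 reads in all.

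Of 6 lists of markers of other cells, the platelet list in non-RGCs was the only one whose summed level was higher in every mKO library than in every WT library. The 7 platelet genes summed to 123.3 to 194.6 normalised reads in mKO RGCs and 88.7 to 295.3 in WT RGCs, with overlap, and 0 of the 2 tested were called (limma) and 0 had an unadjusted p under 0.05. Pf4, platelet factor 4, had 140, 35 and 31 reads in mKO and 24, 195 and 12 in WT RGCs, so its high libraries were mKO A and WT B. In non-RGCs the platelet sum was 33.6 to 43.9 in mKO and 25.2 to 31.6 in WT, where Itga2b, the only gene tested, gave most of the sum and had a log2 change of 0.30 ± 0.29 (adjusted p = 0.52), and the platelet collagen receptor gene Gp6 was at 0 in all libraries. The 10 leukocyte genes summed to 162.8 to 376.1 in mKO RGCs and 172.3 to 359.3 in WT RGCs, and to 38.1 to 62.3 and 9.38 to 63.2 in non-RGCs, with 0 called and 0 at an unadjusted p under 0.05 (limma). The T cell genes Cd3e and Cd3d were at 0 in both non-RGC groups. The neutrophil gene S100a9, singled out after its values were seen, had 9, 10 and 2 reads in mKO non-RGCs and 1, 2 and 0 in WT, and 3, 2 and 6 in mKO RGCs against 0, 1 and 0, and did not pass the filter. The listed neutrophil genes did not go alike in non-RGCs. S100a8 had 3, 3 and 3 reads in mKO and 1, 1 and 0 in WT. Camp had 10, 5 and 0 against 9, 3 and 7, and Ngp 2, 0 and 0 against 1, 2 and 0. In RGCs the mKO means of Camp and Ngp were the higher ones, at 4.61 against 2.08 and 1.49 against 0.778 normalised reads. The part of other blood cells in the globin values was not tested.

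The 8 microglia and macrophage genes summed to 1577 to 3250 in mKO RGCs and 2702 to 4064 in WT RGCs, and to 121.8 to 236.9 and 30.2 to 298.7 in non-RGCs. None was called in either fraction (limma), with 4 genes in RGCs and 0 in non-RGCs at an unadjusted p under 0.05, and all but P2ry12 had log2 changes under 0 in RGCs. The 8 endothelial genes summed to 3310 to 3787 and 3611 to 5215 in RGCs with 0 called and 0 at an unadjusted p under 0.05. In non-RGCs the endothelial sums were 4977 to 5827 and 6519 to 6844, and Tie1, an endothelial receptor gene, fell by 3.40 on the log2 scale (SE 0.81, adjusted p = 0.031). Of the 6 tested there, 4 had an unadjusted p under 0.05 (limma). These were Tie1, Pecam1, Cdh5 and Kdr, all lower in mKO. Kdr, which retinal progenitors also transcribe, gave most of these sums. The 4 pericyte genes summed to 246.2 to 968.5 and 415.5 to 1497 in RGCs, where Pdgfrb fell by 0.84 (SE 0.26, adjusted p = 0.041), and to 265.5 to 386.8 and 411.9 to 540.0 in non-RGCs with 0 called and 0 at an unadjusted p under 0.05. The vessel markers called were thus Pdgfrb in RGCs and Tie1 in non-RGCs, both lower in mKO. Over all genes tested, 21.7% were called lower in RGCs and 6.53% in non-RGCs, so nothing is read from these calls. In non-RGCs the endothelial and pericyte sums were lower in every mKO library than in every WT library. So were 19.5% of the single genes tested there, and nothing is read from these sums.

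Of the 8 kidney genes, 6 had at most 3 reads in every mKO library and 1 in every WT library, in either fraction. Their sum was 28.6 to 43.3 in mKO RGCs against 86.4 to 115.1 in WT RGCs, and 9.89 to 17.3 against 76.1 to 83.9 in non-RGCs. Umod fell by 4.67 on the log2 scale in RGCs (SE 0.49, adjusted p = 8.7e-04), and in non-RGCs Umod fell by 4.70 (SE 0.47, adjusted p = 0.0033). Atp6v1b1, a proton pump gene and the one with the most reads, had 0.71 ± 0.62 in RGCs (adjusted p = 0.40). The kidney sum was thus lower in every mKO library, where the adult globins were higher.

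Last, the genes were sought whose level varied most like the summed globins among libraries of the same group. Over 12 libraries, with the mean of each group taken away, the highest Pearson correlations among 14500 genes were those of Tctex1d2 (r = 0.95), Gfer (0.94), Gm2830 (0.93), Agpat3 (0.93) and Tpgs1 (0.93), and 2.74% of genes had an r over 0.8. These 5 genes have transcripts of 385 to 5980 bases and 41.9 to 65.3% GC, and none belongs to the lists above. Alas2 had an r of 0.34 and Fech of −0.15. With 12 libraries, and Alas2 at as few as 9 reads in a library, these values do not settle whether Alas2 varied apart from the globins. The points share library depth and the base composition of the library, and the values are given as a description.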

How the data were processed

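RNA of the RGC and non-RGC fractions was sequenced in 12 libraries. According to the submitters' processing notes, STAR 2.3.1z4 placed the reads on mm10 and featureCounts counted them, and the authors scaled and tested the counts with DESeq. The authors deposited, per gene, a signal for each group: the mean of its 3 libraries' counts after division by size factors. The other deposited columns hold their fold changes and p-values and were not used. Per-sample columns left unused numbered 0.

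Whole reads of each library were worked back from the means, given to many digits, for 100% of genes with reads, but not the replicate numbers. Normalised reads were fitted with limma 3.58.1 (R 4.3.3, with a trend) on log2(value + 1), per table, where the 6 libraries averaged 10 or more. Fold changes on this scale understate those of low genes. Genes were called at a Benjamini-Hochberg adjusted p under 0.05. The fit was tested on simulated data. Libraries came from 3 RNA extractions per group, and whether these were of separate litters is not given in the sources used here, so p-values measure the spread between these libraries.

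The genes, lists and tests were chosen with earlier results of these data known. Named were all 8 genes, up to 4 called genes of each list, the 2 with the most reads, genes with at most 3 reads in every library, and the 5 genes varying most like the globins. Alternatives were a pseudocount of 0.5, other filters and scalings, removal of the GC and reads per base trends, a fold threshold, and each library left out. Intervals cover counting error only. Results of some listed genes, and the test of a difference between the fractions, are not reported here.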

Additional observations from a re-analysis of the deposited data

How the results depend on the processing

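The log2 change of the globin sum kept its direction in RPM, with upper-quartile scaling, with the GC trend removed, with the GC and reads per base trends removed, and with each library left out in turn. In RGCs it was 1.21, moved to 1.33 in RPM and to 1.41 with the GC trend removed, and lay between 1.15 and 1.27 with 1 library left out. In non-RGCs it was 1.82, between 1.85 and 2.00 under the other scalings and corrections, and 1.59 to 1.99 with 1 library left out. The value of 1.59 was that without mKO non-RGC library C. The called pathway genes, 3 higher and 13 lower in RGCs, depended on the setting: 1 higher and 4 lower at a p under 0.05 with a fold change of at least 1.5, 8 lower in RPM, 5 lower with the GC trend removed, and 0 higher and 1 lower with the GC and reads per base trends removed. Leaving out 1 library gave 2 to 4 higher and 8 to 18 lower, 8 being the count without mKO RGC library B and also without C. In non-RGCs, with 2 higher and 5 lower, the counts were 2 lower at the fold threshold, 3 lower in RPM, 1 higher and 1 lower with the GC trend removed, and 1 higher and 0 lower with both removed. Leaving out 1 library gave 0 to 2 higher and 0 to 7 lower, with 0 of each without mKO non-RGC library B, 1 of each without WT non-RGC library B, 1 higher without mKO or WT non-RGC library A, and 3 lower without WT non-RGC library C. The cause was not tested. No paired analysis was possible because the recovered libraries carry no replicate number. Globin genes had 12 to 236 reads a library, and Slc4a1 at most 20, so small differences in Slc4a1 were not detectable at this depth.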
